A study of Mus musculus with 16 samples.

Results

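Kupffer cells are the resident macrophages of the liver, and 9 genes that mark them were followed here: Clec4f, Vsig4, Cd5l, Timd4, Marco, Folr2, Cd163, C6 and Id3. They were found on the arrays through the transcript accession of each probe, and each has 1 named probe, among 33269 gene names in all. The series measured total RNA on 16 one-colour arrays. Samples were inflammatory cells and whole liver of C57Bl/6 female mice, all fed an atherogenic high-fat diet for 40 weeks as a model of cirrhosis. Mice received adipose tissue-derived stem cells (ADSC) or phosphate-buffered saline (PBS). The ADSC came from inguinal fat of GFP-transgenic mice, were expanded in culture, and entered through the spleen's subcapsule in 2 injections of 100000 cells. In the ADSC groups, tissue was collected 2 weeks after the second injection. The number and timing of injections are not recorded for the PBS arrays. The groups were inflammatory cells ADSC, inflammatory cells PBS, liver ADSC and liver PBS, with 4 arrays in each. ADSC arrays are numbered 7 to 10 and PBS arrays 11 to 14 in both sample types.

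Mouse Kupffer cells sit in the liver sinusoids, where they take up particles, old red cells and microbes from portal blood. Their identity depends on signals from neighbouring endothelial, stellate and parenchymal cells, among them Notch ligands, TGF-beta family ligands, sterol ligands of LXR and the growth factor CSF1. When resident cells are lost, recruited monocytes can take the empty place and acquire the same genes gradually, with Timd4 among the later ones. The 9 genes fall into receptors that bind carbohydrate, complement or debris (Clec4f, Vsig4, Marco, Timd4, Cd163), a folate receptor (Folr2), secreted proteins (Cd5l, C6) and a transcriptional regulator (Id3). None is restricted to Kupffer cells in the strict sense except, in mice, Clec4f: Marco, Timd4, Cd163, Vsig4 and Folr2 occur on other resident macrophages, C6 is also made by hepatocytes, and Id3 is widely expressed.

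Between 51.6% and 66.3% of spots on an array were well above background, and the 75th percentile of the signal lay between 117.1 and 522.5. Every level below is the log2 signal minus that percentile of its own array, so 0 is the 75th percentile and a difference of 1 is a doubling of signal. Arrays of a group correlated at 0.92 to 0.97 in inflammatory cells ADSC, 0.93 to 0.97 in inflammatory cells PBS, 0.98 in liver ADSC and 0.96 to 0.98 in liver PBS. The labels do not state that arrays stand for separate animals, so p-values measure the spread between these samples. The extraction protocol speaks of inflammatory cells from a tumor and of blood, so the way the fraction was isolated is not settled. Relative to liver, the fraction had higher signal for 5 of 5 B cell and 4 of 4 measured T cell markers, and lower signal for 6 of 6 measured hepatocyte markers. Over all genes tested, 49.0% were called higher and 35.2% lower. Cd4 (above background on 0 of 8 liver arrays) and Cd79a (3 of 8) entered this test only through the cell arrays, so nothing is read from those calls. All 8 exocrine pancreas markers were also higher. No liver array had more than 2 of these 8 above background, so most entered only through the cell arrays and their calls were built in. Their mean level was over 6 on inflammatory cells PBS 11, PBS 13 and ADSC 10 and under 3 on the other cell arrays.

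In inflammatory cells, Cd5l fell after ADSC, and it was the only 1 of the 9 genes to pass the test. Clec4f and Vsig4 had larger differences in the same direction and did not pass, with arrays that spread more widely. Over all 20165 genes tested, 1.09% were called lower and 0.134% were called higher at an adjusted p under 0.05. ADSC and PBS arrays did not overlap for 5 of the 9 genes (Clec4f, Vsig4, Cd5l, Marco and C6), all with ADSC below, against 6.67% of all tested genes with ADSC wholly below and 3.69% with ADSC wholly above. Of the 9 fold changes 7 were negative, beside 47.1% of those of all tested genes. The median log2 fold change was -1.16, beside 0.03 over all genes. In bulk RNA of this kind, fewer cells of a type and less RNA per cell cannot be told apart.

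**Figure D1:**
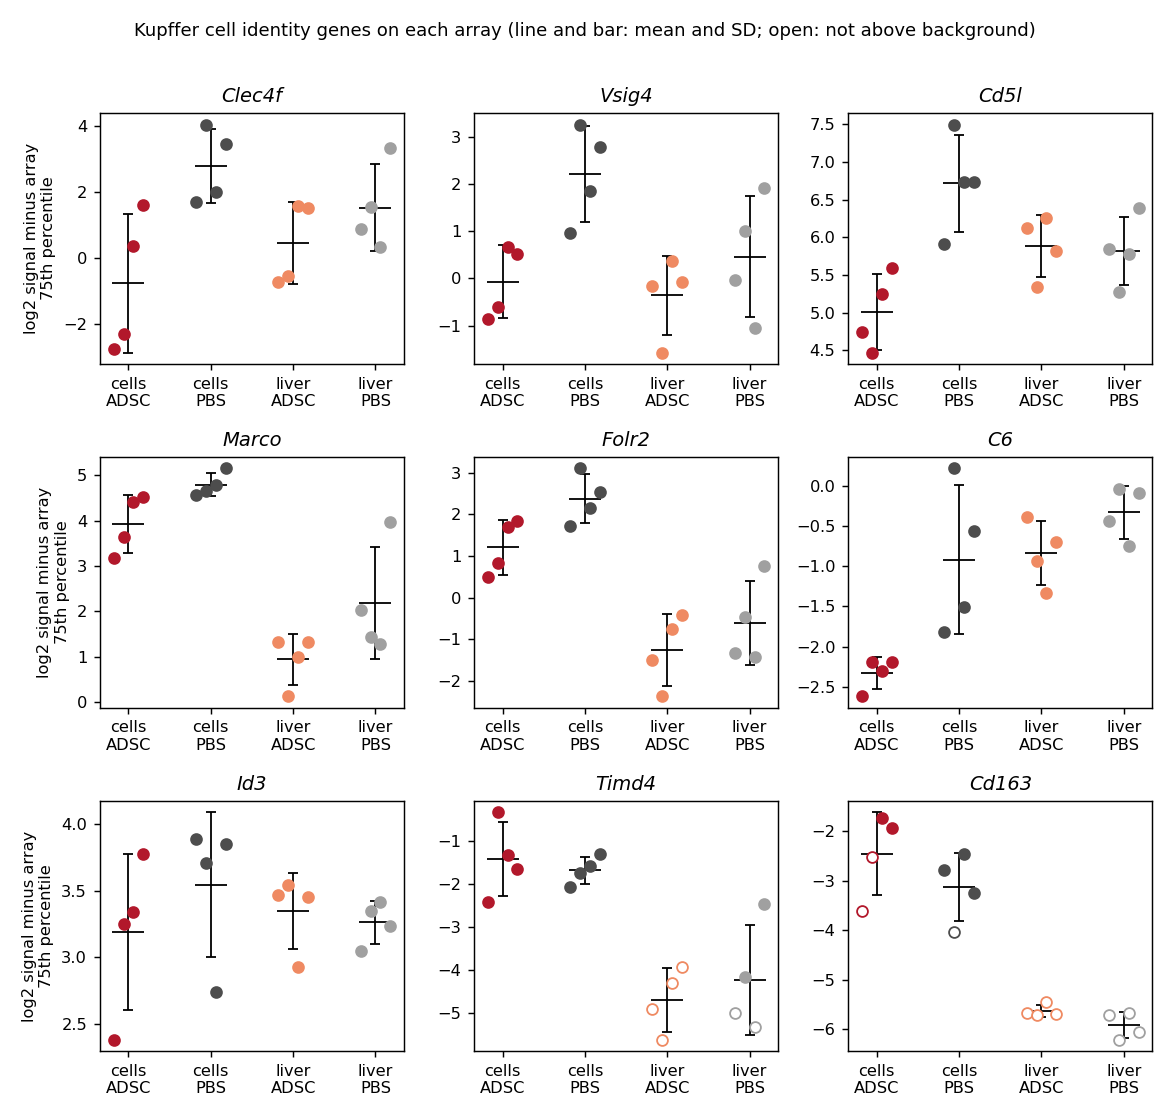
Level of each of the 9 genes on each of the 16 arrays (y axis, log2 signal minus the array's 75th percentile; each panel has its own range). Points are arrays in order of their number, with open points not well above background, and the line and bar are the group mean and SD (n = 4). In inflammatory cells, the ADSC points lie wholly below the PBS points for Clec4f, Vsig4, Cd5l, Marco and C6.

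Cd5l encodes a secreted scavenger protein of tissue macrophages, also called AIM, which binds lipids and IgM. Its level was 4.74, 4.47, 5.25 and 5.59 on inflammatory cells ADSC 7 to 10, against 5.91, 7.49, 6.73 and 6.73 on inflammatory cells PBS 11 to 14. The highest ADSC array stood below the lowest PBS array. The log2 fold change was -1.70 ± 0.36 (SE, n = 4 each, limma, adjusted p = 0.0492), or 3.26-fold lower in ADSC. The call lies at the edge of the threshold: leaving out 1 array at a time gave adjusted p-values of 0.0284 (without PBS 11) to 0.14 (without PBS 12), and the call was lost without any 1 of the other 7 arrays. The direction did not depend on 1 array, with log2 fold changes of -1.97 to -1.45.

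Clec4f, a C-type lectin that binds galactose-bearing ligands and is the most restricted Kupffer cell marker of the mouse, had the widest range. Its level was -2.75, -2.28, 0.36 and 1.59 on inflammatory cells ADSC 7 to 10, against 1.68, 4.03, 1.99 and 3.43 on inflammatory cells PBS 11 to 14. ADSC 7 and 8 stood well apart from ADSC 9 and 10, and ADSC 10 came within 0.1 of PBS 11. The log2 fold change was -3.55 ± 0.90 (SE), 11.7-fold lower in ADSC, with a limma adjusted p of 0.0948. Only 0.0992% of tested genes had a log2 fold change as low or lower.

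Vsig4 encodes the complement receptor CRIg, with which Kupffer cells capture particles coated with C3b. Its level was -0.86, -0.61, 0.66 and 0.53 on inflammatory cells ADSC 7 to 10, against 0.97, 3.27, 1.85 and 2.78 on inflammatory cells PBS 11 to 14. Again ADSC 7 and 8 were the lowest, and all 4 ADSC arrays were below all 4 PBS arrays. The log2 fold change was -2.29 ± 0.51 (SE, limma adjusted p = 0.0635).

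Marco, a class A scavenger receptor with a collagen-like domain, showed a smaller difference. Its level was 3.17, 3.64, 4.42 and 4.51 on inflammatory cells ADSC 7 to 10, against 4.57, 4.66, 4.80 and 5.15 on inflammatory cells PBS 11 to 14. The groups were apart by less than 0.1, and the log2 fold change was -0.86 ± 0.32 (SE, limma adjusted p = 0.204). C6, a component of the terminal complement complex, had levels of -2.62, -2.19, -2.30 and -2.20 on inflammatory cells ADSC 7 to 10, against -1.82, 0.22, -1.51 and -0.56 on inflammatory cells PBS 11 to 14. The ADSC arrays lay close together and below the PBS arrays, which ranged over 2 log2 units, and the log2 fold change was -1.41 ± 0.40 (SE, limma adjusted p = 0.13).

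Folr2, the folate receptor beta of resident macrophages, had levels of 0.49, 0.82, 1.69 and 1.84 on inflammatory cells ADSC 7 to 10, against 1.71, 3.10, 2.15 and 2.52 on inflammatory cells PBS 11 to 14. The highest ADSC array exceeded the lowest PBS array, and the log2 fold change was -1.16 ± 0.38 (SE, limma adjusted p = 0.171). Id3, a helix-loop-helix regulator required for Kupffer cell development in the mouse, had levels of 2.38 to 3.78 in inflammatory cells ADSC, against 2.74 to 3.89 in inflammatory cells PBS. Those groups overlapped widely, and the log2 fold change was -0.36 ± 0.35 (SE, limma adjusted p = 0.613).

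Timd4 and Cd163 had fold changes of the other sign, and neither passed the test. Timd4 encodes a phosphatidylserine receptor for dying cells and is kept by long-lived resident macrophages. Its level was -2.41, -0.33, -1.32 and -1.65 on inflammatory cells ADSC 7 to 10, against -2.06, -1.75, -1.59 and -1.32 on inflammatory cells PBS 11 to 14, a log2 fold change of 0.25 (95% interval -0.60 to 1.11, limma adjusted p = 0.762). The sign of that small difference rested on ADSC 8: without it the log2 fold change was -0.11. Cd163, the receptor that takes up haemoglobin bound to haptoglobin, was dim, with signal well above background on 2 of 4 inflammatory cells ADSC arrays and 3 of 4 inflammatory cells PBS arrays. Its levels were -3.61 to -1.74 in inflammatory cells ADSC, against -4.03 to -2.46 in inflammatory cells PBS, with a log2 fold change of 0.67 (95% interval -0.30 to 1.65, limma adjusted p = 0.425).

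**Figure D2:**
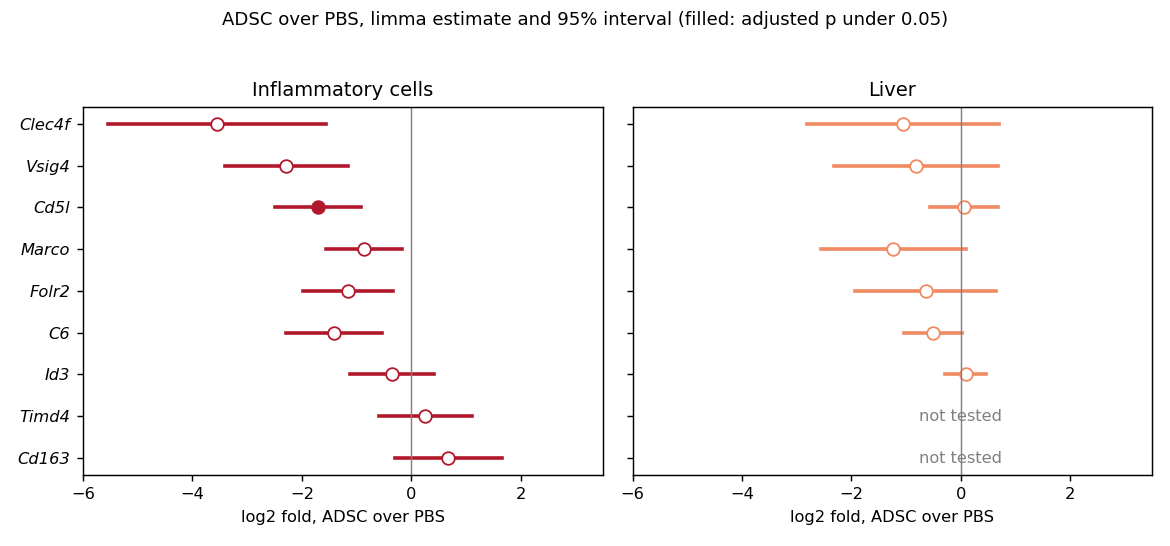
Log2 fold change of ADSC over PBS (x axis) for the 9 genes in inflammatory cells (left) and liver (right), as limma estimates with 95% intervals. The filled point is the gene with an adjusted p under 0.05, Cd5l in inflammatory cells at -1.70. Timd4 and Cd163 were not tested in liver.

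ADSC 7 and 8, the pair with the lowest Clec4f and Vsig4, were scanned on another day than ADSC 9 and 10. The PBS arrays of the same scan day as ADSC 7 and 8 were PBS 11 and 12, and PBS 13 shared the scan day of ADSC 9 and 10. Within the first of these days the ADSC mean minus the PBS mean was -5.37 for Clec4f, -2.86 for Vsig4 and -2.10 for Cd5l, and within the other it was -1.01 for Clec4f, -1.26 for Vsig4 and -1.31 for Cd5l. With scan day as a term in the fit, the log2 fold change of Cd5l was -1.78 and its limma adjusted p was 0.114. ADSC 7 and 8 also shared slides with PBS 12 and 11 in that order, and on the slide that held ADSC 8 and PBS 11 the difference was -3.96 for Clec4f, -1.59 for Vsig4 and -1.44 for Cd5l. On the slide that held ADSC 7 and PBS 12 it was -6.78 for Clec4f, -4.13 for Vsig4 and -2.75 for Cd5l. All 3 genes were lower in ADSC within each of these days and slides, but the sign could not have differed. Every ADSC array lay below every PBS array for these genes. The 2 slides also hold the same cell arrays as the first of these days, so they are no separate check. Without the 3 arrays rich in pancreas markers the log2 fold change was -5.29 for Clec4f, -3.30 for Vsig4 and -2.29 for Cd5l, all with a limma adjusted p of 0.136, so 0 of 9 genes were called.

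On a list of 13 other Kupffer cell genes, all 12 tested members had a negative log2 fold change in inflammatory cells, beside 47.1% of all tested genes. Their median was -1.14, and 2 were called lower. Slc40a1, which encodes the iron exporter ferroportin, had a log2 fold change of -1.59 ± 0.29 (SE, limma adjusted p = 0.0275). Il18bp, a secreted inhibitor of interleukin-18, had a log2 fold change of -1.73 ± 0.29 (SE, limma adjusted p = 0.0205). The 10 others did not pass: the log2 fold change was -2.10 for Fabp7, -1.33 for Cd207, -1.24 for Vcam1, -1.17 for Id1, -1.12 for Cdh5, -0.98 for Nr1h3, which encodes LXR alpha, -0.66 for Spic, -0.57 for Pcolce2, -0.56 for Hmox1 and -0.26 for Cd38. Kcna2 was not tested, since its probe was above background on too few arrays. Spic, Slc40a1, Vcam1 and Hmox1 also mark red pulp macrophages of the spleen.

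Genes that all macrophages share had fold changes of the same sign, in a comparison where 47.1% of all tested genes were negative. Of 11 measured pan-macrophage genes, all 11 had negative log2 fold changes with a median of -0.88, and Fcgr1, the high-affinity IgG receptor, was called lower at -1.53 ± 0.27 (SE, limma adjusted p = 0.0241). Adgre1, which encodes F4/80, had -1.14 (adjusted p = 0.0632), and Sirpa, an inhibitory receptor for CD47, had -1.14 (adjusted p = 0.0758). Of 10 measured genes of monocytes and recruited macrophages all 10 were negative with a median of -1.08, and Chil3, a chitinase-like protein also made by neutrophil precursors, was called lower at -3.45 (adjusted p = 0.00242). Spp1, which encodes osteopontin, had -1.57 (adjusted p = 0.0849), and the tetraspanin gene Cd9 had -1.19 (adjusted p = 0.0852). The lists for Kupffer cells, macrophages in general and monocytes thus had medians within 0.3 of each other. The mean level of the 9 genes minus that of the pan-macrophage genes was -2.60 ± 0.46 in inflammatory cells ADSC and -2.36 ± 0.35 in inflammatory cells PBS (SD, n = 4 each). The ranges overlapped, at -3.14 to -2.18 in ADSC and -2.70 to -2.01 in PBS. That mean of 9 joins genes with log2 fold changes from -3.55 (Clec4f) to 0.67 (Cd163), so it does not stand for each gene.

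Markers of other cell types also differed on these arrays, and their part in the Kupffer cell result was not tested. Neutrophil markers were called lower for 9 of 10 genes, with a median log2 fold change of -4.26. The granule genes Elane (-4.70), Ctsg (-4.54), Ltf (-4.44), Ngp (-4.37), Camp (-4.34) and Mpo (-4.18) changed most, ahead of Retnlg (-3.47), S100a8 (-2.81) and S100a9 (-1.50). The mean level of the list ran over 1.62 to 2.47 in inflammatory cells ADSC, against 4.82 to 6.67 in inflammatory cells PBS. All 8 exocrine pancreas markers had negative log2 fold changes (median -2.89), and 0 were called. The smallest p-values were those of Cpb1 (-3.35), Cela2a (-3.47) and Cela3b (-3.06), and the mean level of the list overlapped between groups, at -1.64 to 8.64 in inflammatory cells ADSC and 1.83 to 8.62 in inflammatory cells PBS.

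All 5 B cell markers had positive log2 fold changes (median 1.00, mean level 2.48 to 3.22 in inflammatory cells ADSC, against 1.04 to 2.19 in inflammatory cells PBS), and 0 were called. Cd22 had 1.88 (limma adjusted p = 0.0709) and Cd79a 1.25 (adjusted p = 0.125). All 6 measured hepatocyte markers were positive (median 1.20, mean level 1.12 to 2.83 in ADSC, against -0.07 to 1.34 in PBS), and 0 were called. Apoa1 had 1.58 (adjusted p = 0.136), Serpinc1 1.45 (adjusted p = 0.148) and F2 1.24 (adjusted p = 0.184). T cell markers were split at 2 positive and 2 negative with 0 called, among them Cd4 at 0.22, Cd3g at -0.29 and Cd3e at -0.19. Of 7 sinusoidal endothelial markers 0 were called, with Lyve1 at 1.50, Clec4g at -1.35 and Pecam1 at 0.66, and of 6 stellate cell markers only Dcn was tested, at 0.41.

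**Figure D3:**
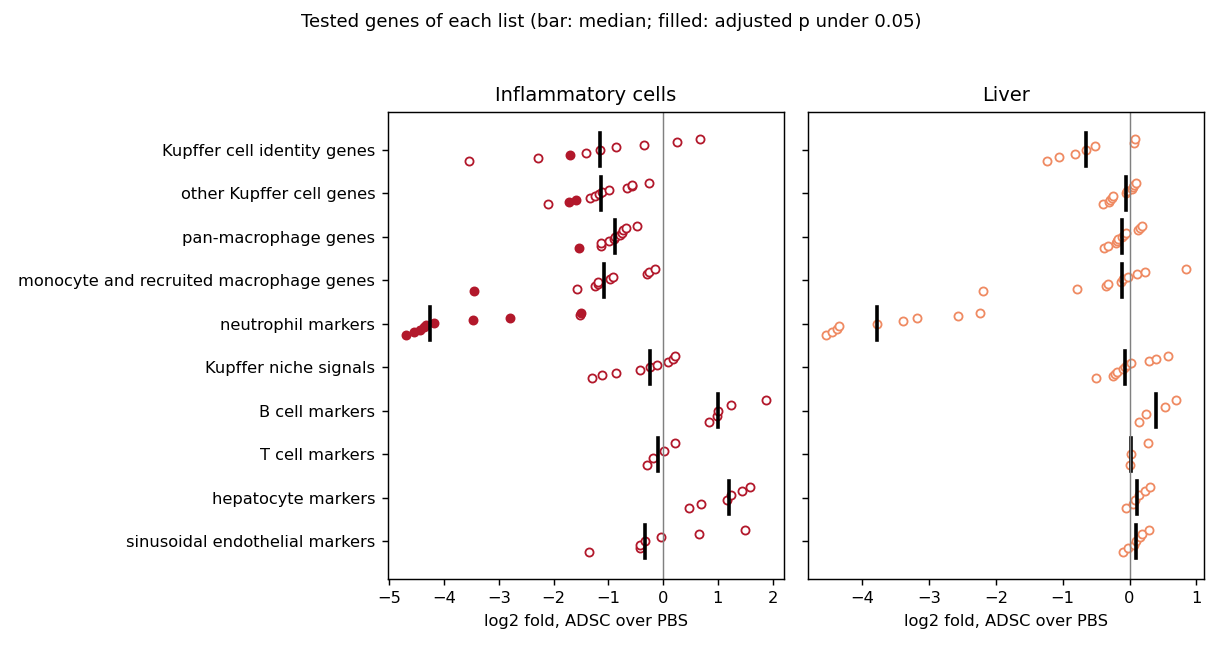
Log2 fold change of ADSC over PBS (x axis) for each tested gene of 10 lists (rows), in inflammatory cells (left) and liver (right, on its own range). Black bars are list medians and filled points have an adjusted p under 0.05. In inflammatory cells the medians of the first 4 rows lie between -1.16 and -0.88 and that of the neutrophil markers at -4.26, and no point is filled in liver.

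Signals that maintain the Kupffer cell state were also measured in inflammatory cells. Of the 12 listed, 9 were tested and 0 were called, with a median log2 fold change of -0.24. The ligand genes Gdf2, Bmp10 and Bmp6 were not tested, being above background on 0, 1 and 2 of the 8 cell arrays in that order. The lowest p-values belonged to Csf1r, the CSF1 receptor, at -0.86 (limma adjusted p = 0.159), Acvrl1, the BMP9 receptor ALK1, at -1.31 (adjusted p = 0.159) and Csf1 at -1.11 (adjusted p = 0.194). Rbpj, which carries the Notch signal to DNA, had -0.12, and Smad4, the shared mediator of TGF-beta and BMP signals, had 0.08. In liver, where no gene on the array passed, 11 of the 12 were tested, with a median log2 fold change of -0.07.

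In whole liver no gene passed the test: 0 percent of 17321 genes were called lower and 0 percent were called higher. An unadjusted limma p under 0.05 was found for 806 genes, or 4.65%, a share no larger than the threshold itself. Of the 9 Kupffer cell genes 7 were tested, and 0 were called, with 0 at an unadjusted p under 0.05. ADSC and PBS livers overlapped for all 9, beside 1.24% of tested genes with ADSC wholly below and 1.69% with ADSC wholly above. The level of Clec4f was -0.72, -0.54, 1.57 and 1.50 on liver ADSC 7 to 10, against 0.86, 1.55, 0.32 and 3.33 on liver PBS 11 to 14, a log2 fold change of -1.06 (95% interval -2.82 to 0.70). The level of Marco was 1.32, 0.13, 1.00 and 1.31 on liver ADSC 7 to 10, against 2.03, 1.42, 1.29 and 3.97 on liver PBS 11 to 14, a log2 fold change of -1.24 (95% interval -2.56 to 0.09). Liver PBS 14 was the highest of the 8 arrays for both genes.

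Other members in liver gave small or uncertain values. The log2 fold change was -0.82 for Vsig4 (95% interval -2.31 to 0.68), -0.65 for Folr2 (-1.94 to 0.65) and -0.51 for C6 (-1.05 to 0.02). For Cd5l it was 0.06 (-0.56 to 0.68), with levels of 6.13, 5.34, 6.26 and 5.81 on liver ADSC 7 to 10, against 5.84, 5.28, 5.78 and 6.39 on liver PBS 11 to 14. The livers of the 2 treatments thus had closely similar Cd5l ranges, whereas the inflammatory cells did not overlap. Id3 had a log2 fold change of 0.09 (-0.28 to 0.45). Timd4 was above background on 0 of 4 liver ADSC arrays and on 2 of 4 liver PBS arrays (PBS 12 and 14), and Cd163 on none of the 8, so neither was tested. Each of the 7 tested genes had a limma adjusted p of 0.998. Some of the negative values in liver changed sign with a batch term. With scan day as a term the log2 fold change was 1.16 for Vsig4, 0.29 for Folr2, 0.11 for Clec4f, -0.12 for C6 and -0.13 for Marco. With slide as a fixed block it was 0.89 for Vsig4, 0.35 for C6, 0.03 for Marco, -0.08 for Folr2 and -1.03 for Clec4f. Only 1 scan day (liver ADSC 7 and 9 with liver PBS 13) and 1 slide (liver ADSC 7 with liver PBS 13) held livers of both treatments, so those values rest on these arrays.

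The difference of the ADSC effect between inflammatory cells and liver was tested in 1 fit of all 16 arrays, in which 0.0316% of 22139 genes were called lower and 0 percent higher. None of the 9 genes was called. The strongest was Cd5l, with a log2 difference of -1.77 ± 0.48 (SE, unadjusted p = 0.00213, limma adjusted p = 0.227). For Clec4f it was -2.49 ± 1.32 (adjusted p = 0.542), for Vsig4 -1.47 ± 0.90 (adjusted p = 0.597) and for Marco 0.37 ± 0.69 (adjusted p = 0.878).

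Inflammatory cells were then set against whole liver, with the mean of the 2 cell groups over that of the 2 liver groups, to describe how far the fraction holds Kupffer cell transcripts. Of the 9 genes, Vsig4, Marco and Folr2 were called higher and C6 was called lower, in a comparison where 49.0% of 22139 genes were called higher and 35.2% were called lower. Timd4 and Cd163 were also called higher, but they entered the test only through the cell arrays: Timd4 was above background on 2 of 8 liver arrays and Cd163 on 0 of 8, so a difference was built into their entry and nothing is read from those 2 calls. The median log2 fold change over all genes was 0.36. Cell and liver arrays overlapped for each of the 7 other genes, beside 34.0% of tested genes with cells wholly above and 23.7% with cells wholly below.

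Among the genes measured on both sides, Marco and Folr2 had the larger differences. The log2 fold change of cells over liver was 2.81 ± 0.35 for Marco (SE, limma adjusted p = 1.33e-06) and 2.73 ± 0.36 for Folr2 (SE, limma adjusted p = 3.01e-06). For Timd4 and Cd163 the size depends on how background is treated: the log2 fold change was 2.90 for Timd4 and 2.98 for Cd163, and with normexp and quantile normalization it was 0.79 for Timd4 and 0.50 for Cd163. Vsig4 passed narrowly at 1.02 ± 0.45 (SE, limma adjusted p = 0.0444), and leaving out 1 array at a time gave adjusted p-values of 0.0119 (without liver PBS 14) to 0.0996 (without liver PBS 13), with the call lost in 9 of 16 cases (without liver ADSC 7, 8 or 10, liver PBS 11 or 13, inflammatory cells ADSC 9 or 10, or inflammatory cells PBS 12 or 14). The Vsig4 difference between cells and liver was 0.29 within ADSC and 1.76 within PBS. C6, the gene that hepatocytes also make, had -1.04 ± 0.25 (SE, limma adjusted p = 0.00122).

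Clec4f, Cd5l and Id3 were not called on this average of both treatments, which joins differences of opposite sign for each of the 3. The log2 fold change was 0.02 (95% interval -1.39 to 1.43) for Clec4f, 0.01 (-0.50 to 0.52) for Cd5l and 0.06 (-0.38 to 0.50) for Id3. With normexp and quantile normalization Id3 was called higher in cells, at 0.55 (limma adjusted p = 0.0294). Within ADSC the mean of Clec4f was -0.77 in inflammatory cells and 0.45 in liver, a difference of -1.22, and within PBS it was 2.78 in inflammatory cells and 1.51 in liver, a difference of 1.27. For Cd5l the mean was 5.01 in inflammatory cells and 5.88 in liver within ADSC, and 6.72 in inflammatory cells and 5.82 in liver within PBS. For Id3 the difference was -0.16 within ADSC and 0.28 within PBS. Marco and Folr2 were higher in cells under both treatments, by 2.99 and 2.47 within ADSC and by 2.62 and 2.98 within PBS. These differences within a treatment are a description, and the test of their contrast is the one given above for the difference of the ADSC effect.

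In the same comparison, 49.0% of all tested genes were called higher in cells and 35.2% lower, so the counts of the next lists are only descriptions. Of the 12 other Kupffer cell genes tested, 4 were called higher in cells: Pcolce2 at 2.64, Spic at 2.47, Hmox1 at 1.53 and Fabp7 at 0.86. Pcolce2 was above background on 3 of 8 liver arrays and entered the test only through the cell arrays, so nothing is read from its call. A further 5 were called lower in cells: Slc40a1 at -2.63, Nr1h3 at -2.20, Cdh5 at -2.07, Vcam1 at -1.84 and Il18bp at -0.70. Hepatocytes also express Nr1h3 and Slc40a1, and endothelial cells express Cdh5 and Vcam1. Of the 11 measured pan-macrophage genes, Lyz2 (0.64) and Aif1 (0.81) were called higher in cells, Sirpa (-1.25), Mertk (-1.20) and Fcgr1 (-0.44) were called lower, and the median log2 fold change was -0.24.

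Within the 8 cell arrays most of the 9 genes varied together. Pearson's r between a gene and the mean of the other 8 genes, over arrays that share treatment groups and scaling, was 0.98 for Folr2, 0.96 for Clec4f, 0.94 for Vsig4, 0.93 for Marco, 0.89 for Cd5l, 0.81 for C6 and 0.62 for Id3. Timd4 (-0.04) and Cd163 (-0.25) did not follow the others. In liver the order differed: r was 0.97 for Folr2, 0.96 for Timd4, 0.91 for Vsig4, 0.87 for Clec4f and 0.86 for Marco, but 0.51 for Cd5l, 0.47 for C6, -0.40 for Id3 and -0.56 for Cd163, the last at background signal throughout. Timd4 followed the other genes in liver, where 2 of its 8 arrays were above background, and not in cells. Of the 36 pairs of genes, 14 had an r above 0.8 in cells and 9 in liver, while 9 were negative in cells and 14 in liver. The lowest r was -0.60 in cells and -0.87 in liver. Pairs of other genes were not counted for comparison.

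The genes whose level was most like the mean of the 9 were ranked over the same arrays. In cells they were Zfyve19 (r = 0.991), Sumf1 (0.989), Fabp7 (0.982), Eef1akmt4 (0.973) and Glmp (0.972), of 12182 genes ranked. In liver they were Treml4 (0.961), Fcna (0.921), Fabp7 (0.921), Esm1 (0.920) and Ccl24 (0.901), of 11299 genes ranked. Fabp7, a fatty acid binding protein found in mouse Kupffer cells, was the 1 gene in both lists of 5. Fcna encodes ficolin A, a lectin of the complement system made by macrophages.

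The promoters of 4 genes that varied together in cells (Clec4f, Vsig4, Cd5l and Marco) and of Timd4, which did not, are shown for comparison. Each is the 250 bases before the transcription start in RefSeq GRCm38.p6, 5′ to 3′ on the strand of the gene. Capitals mark 5 motifs of 6 letters, searched on both strands: AGGAAG (a core bound by PU.1 and other ETS factors), TGGGAA (the RBPJ core), TGCTGA (the core of a MAF site), AGGTCA (the core read by nuclear receptors such as LXR) and GTCTAG (part of a SMAD palindrome).
Clec4f (chr6:83656117-83656366, - strand): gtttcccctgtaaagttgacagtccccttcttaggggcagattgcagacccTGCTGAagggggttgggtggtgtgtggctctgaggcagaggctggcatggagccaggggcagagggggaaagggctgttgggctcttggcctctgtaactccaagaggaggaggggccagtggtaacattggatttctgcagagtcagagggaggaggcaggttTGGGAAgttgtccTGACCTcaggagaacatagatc
Vsig4 (chrX:96293439-96293688, - strand): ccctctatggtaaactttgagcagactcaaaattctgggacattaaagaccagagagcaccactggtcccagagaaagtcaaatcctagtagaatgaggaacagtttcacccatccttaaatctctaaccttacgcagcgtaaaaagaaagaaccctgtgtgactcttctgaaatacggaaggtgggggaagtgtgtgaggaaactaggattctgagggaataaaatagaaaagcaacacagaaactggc
Cd5l (chr3:87357631-87357880, + strand): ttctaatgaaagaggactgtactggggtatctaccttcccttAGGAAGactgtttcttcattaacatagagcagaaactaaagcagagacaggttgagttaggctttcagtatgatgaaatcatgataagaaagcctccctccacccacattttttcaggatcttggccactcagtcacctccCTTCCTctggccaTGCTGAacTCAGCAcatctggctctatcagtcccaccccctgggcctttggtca
Marco (chr1:120505025-120505274, - strand): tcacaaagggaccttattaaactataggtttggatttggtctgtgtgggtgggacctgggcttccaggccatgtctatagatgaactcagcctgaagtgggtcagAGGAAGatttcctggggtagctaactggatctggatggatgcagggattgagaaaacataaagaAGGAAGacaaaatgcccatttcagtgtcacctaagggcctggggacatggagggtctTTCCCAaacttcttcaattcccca
Timd4 (chr11:46810549-46810798, + strand): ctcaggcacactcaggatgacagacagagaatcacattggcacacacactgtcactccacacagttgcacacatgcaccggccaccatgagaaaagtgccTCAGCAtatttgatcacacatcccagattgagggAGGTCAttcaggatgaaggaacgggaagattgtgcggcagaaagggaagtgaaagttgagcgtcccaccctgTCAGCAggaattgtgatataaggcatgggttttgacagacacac

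AGGAAG or its complement stood in the promoters of 4 of the 9 genes (Cd5l, Marco, Folr2 and Id3), and in 29.5% of the 32851 promoters in the table. TGCTGA stood in those of 4 genes (Clec4f, Cd5l, Timd4 and Folr2), against 16.1% of all promoters, and AGGTCA in those of 3 (Clec4f, Timd4 and C6), against 14.0%. TGGGAA stood in those of Clec4f and Marco, against 21.6%, and GTCTAG in that of Folr2 alone, against 7.11%. Folr2 has 2 promoters in the table and the other genes 1. In Clec4f the TGGGAA lies 35 to 30 bases before the start and the complement of AGGTCA 22 to 17 bases before it. In Cd5l the copies of TGCTGA and its complement lie at 54 to 49 and 46 to 41 bases before the start, on opposite strands. The Vsig4 and Cd163 windows hold none of the 5 motifs. The matches describe these letters only and no binding was measured.

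Arrays of cells and liver share their numbers, and the order of arrays within a treatment was compared between sample types after the values had been seen. For Clec4f, ADSC 7 and 8 were below ADSC 9 and 10 in both cells and liver, and PBS 11 and 13 were below PBS 12 and 14 in both. Over the 8 numbers, the deviations of cell and liver arrays from their group means correlated at Pearson's r = 0.811 (exact permutation p = 0.0625, adjusted over the 9 genes 0.281) and Spearman's rho = 0.643 (exact p = 0.125, adjusted 0.347). Without the 2 cell arrays farthest from the median, ADSC 7 and 10, r was 0.769. Neither measure passed the adjusted threshold for Clec4f or for any other of the 9 genes.

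For the other genes Pearson's r over the 8 numbers was 0.707 for Cd163 (at background signal in liver), 0.667 for Folr2, 0.644 for Vsig4, 0.424 for C6, 0.344 for Marco, -0.02 for Timd4, -0.10 for Cd5l and -0.36 for Id3. Exact permutation p-values for these 8 genes were 0.0573 (Cd163) to 0.96 (Timd4), and the adjusted values 0.281 to 0.96. Permutations exchanged arrays within a treatment only, which gives 576 arrangements, and the p-values are two-sided. Whether a number marks 1 animal is not stated in the labels.

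**Figure D4:**
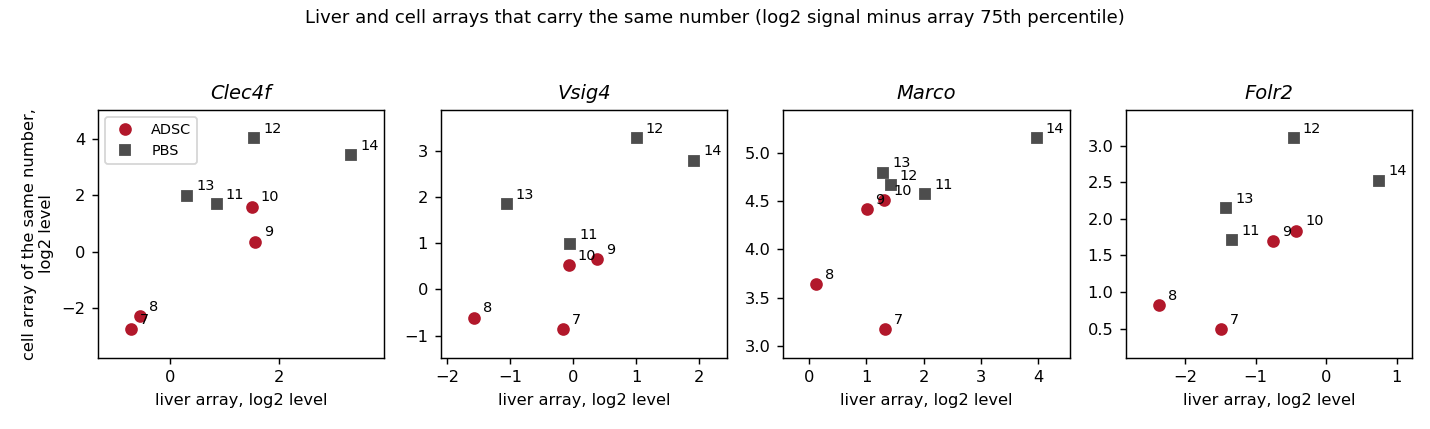
Level on the cell array (y axis) against the level on the liver array of the same number (x axis), both as log2 signal minus the array's 75th percentile, for Clec4f, Vsig4, Marco and Folr2. Each point is 1 number, 7 to 10 for ADSC and 11 to 14 for PBS. For Clec4f, ADSC 7 and 8 lie at the lower left, with levels of -2.75 and -2.28 in cells.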

How the data were processed

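Each sample has 1 scanner file of a one-colour Agilent mouse array. Its deposited intensity (processed signal) was background-subtracted within the array by Agilent Feature Extraction 10.5.1.1, per the file headers, with no normalization between arrays. The deposited value table holds the same intensity values (largest relative difference 0).

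Outlying spots (71 to 124 per array) were left out, log2 signals were averaged per probe, and the 75th percentile of the array was subtracted. Symbols came from probe accessions through RefSeq GRCm38.p6 (23374 probes, 16535 symbols). The brightest probe stood for a gene, and genes entered a test if that probe exceeded background clearly on 4 or more of its arrays. R 4.3.3 with limma 3.58.1 (lmFit, eBayes) was used, with Benjamini-Hochberg adjustment over all genes tested and a threshold of 0.05. The 8 cell arrays and the 8 liver arrays each had their own fit of ADSC against PBS, and the other contrasts came from 1 fit of 16 arrays. On simulated data with normal noise and changes of 2 on the log2 scale in genes drawn at random, 84% were recovered in cells and 90% in liver. The noise was drawn independently for each gene and array, with no slide or scan day effect, so the shares do not cover arrays with such effects. They also do not hold for a gene that spreads widely, such as Clec4f (SE 0.90 in cells and 0.77 in liver). The number of arrays limits the precision.

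The 9 genes and all lists were chosen with earlier results of these data known. Every member is named. For ADSC against PBS in cells, the text names the genes of each other list that passed and, where fewer than 3 did, those with the smallest p up to 3, with the other Kupffer cell genes in full; 1 gene of these lists is not reported here. For cells against liver, the B cell, T cell, hepatocyte and exocrine pancreas lists are given as counts, and Cd4 and Cd79a are named as dim in liver. The neutrophil, monocyte, sinusoidal endothelial, stellate and niche lists are not given for that comparison. The 5 genes most like the mean of the 9 were taken by Pearson's r. Normexp background correction (offset 50) used the median signal and median local background. Other normalizations, filters, probe rules, array weights, slide and scan day terms, and single arrays left out were also tried, and the omission of 3 arrays rich in pancreas markers was chosen after seeing the data.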

Additional observations from a re-analysis of the deposited data

Results flagged for a closer look

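Among 36 groups of 4 arrays (9 genes in 4 groups), 3 had 1 array far from the other 3 by Dixon's criterion, and chance alone flags about 1 in 20 groups. Id3 in liver ADSC had its lowest level, 2.92, on ADSC 9, against 3.46 to 3.54 on the other 3 arrays. Id3 in inflammatory cells PBS had its lowest level, 2.74, on PBS 13, one of the arrays rich in pancreas markers, against 3.71 to 3.89 on the others. Cd163 in liver ADSC had its highest level, -5.45, on ADSC 9, where no array of the group was well above background.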

How the results depend on the processing

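For ADSC against PBS in inflammatory cells, the count of the 9 genes called lower was 1 and became 3 with normexp and the 75th percentile, 3 in one fit of all 16 arrays, 4 with array weights, 4 with slide as a random block and 2 with genes above background on every array. It became 0 with normexp and quantile normalization, with quantile normalization alone, with the percentile over detected probes, without a filter, with the mean of a gene's probes, with slide as a fixed block, with scan day as a term and without the 3 pancreas-rich arrays. Leaving out single arrays gave 0 to 2 (2 without PBS 11, and 0 without PBS 12, 13, 14 or ADSC 7, 8, 9). The count called higher was 0 and became 1 (Cd163) with array weights. The cause was not tested. For cells against liver, the 5 called higher became 3 when genes had to be above background on every array, which removes Timd4 and Cd163. Among single genes there, Id3 was called higher with normexp and quantile normalization (adjusted p = 0.0294), and Vsig4 lost its call with slide as a fixed block (adjusted p = 0.0587). With the number shared by a cell and a liver array as a replicate block, 5 were called higher and 1 lower, and 0 for the difference of the ADSC effect, so the block changed no call; same-numbered arrays correlated at -0.06 to 0.17 in their deviations over all genes, so the numbers were not taken as pairs. Over all genes in cells, 219 were called lower and 27 higher, against 1828 and 2634 with array weights, 0 and 0 with slide as a fixed block, and 69 to 308 lower and 2 to 196 higher with single arrays left out. The scalings gave 118 (percentile over detected probes) to 330 (normexp and the 75th percentile) lower. In liver array weights gave 10 lower and 3 higher; for the difference of the ADSC effect 7 were lower and 0 higher, against 589 and 325 with array weights, while the other scalings gave 1 to 54 lower and 0 to 17 higher. The median of all genes in cells against liver was 0.36 and lay between 0.14 and 0.68 under other scalings. Of the values of single genes under all these settings, 570 stayed on their side of the threshold, 25 lost the call and 15 gained it; no called value changed sign, and 35 uncalled ones did. Liver probes near background leave Cd163 without a measured level there, and Timd4 with 1 on only 2 of 8 liver arrays.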
